A study of Mus musculus with 18 samples.

Results

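This account covers the change in mRNA levels that MEFs shared 12 h after their culture medium was exchanged in either direction. MEFs are mouse embryonic fibroblasts, connective tissue cells of the embryo, here a wild-type (WT) cell line that the study had from ATCC, a cell repository. The cells were grown in Scm, complete medium with a fetal bovine serum that left them sensitive to ferroptosis, an iron-dependent form of cell death, or in Rcm, complete medium with a serum that made them resistant. In S-Rcm 12 h, cells grown in Scm had been moved to Rcm for 12 h, and in R-Scm 12 h, cells grown in Rcm had been moved to Scm for 12 h. Of the 18 RNA-seq libraries of the study, 12 were used by their labels: 3 each of Scm, Rcm, S-Rcm 12 h and R-Scm 12 h, the first 2 groups harvested without an exchange. The remaining 6 libraries, S-Rcm 24 h and R-Scm 24 h, were set beside the 12 h values. Every group was the same WT line in 1 of these media, with no added compound.

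Among the 6 groups none had its own medium renewed. The change of serum, fresh medium, handling and 12 h more in culture therefore cannot be told apart in the shared effect. The labels do not say that replicates came from separate cultures, so that the p-values measure the spread between these libraries, which may be technical.

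Fibroblasts that receive fresh serum are known to switch on genes for growth, matrix remodelling and chemokines, and a serum change can also set the phase of the circadian clock. Interferon-stimulated genes encode antiviral proteins and are transcribed after a cell senses interferon or foreign nucleic acid. ATF4 is a transcription factor that raises the enzymes and transporters of amino acid supply when amino acids run short.

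The 12 libraries held 14534906 to 19787163 counts on genes. Total counts, genes detected, the share of the 50 most abundant genes and the share of mitochondrial mRNA did not separate exchanged from unexchanged libraries (exact permutation tests within the starting medium, two-sided, p = 0.26 to 0.88, smallest possible 0.005). The fibroblast markers summed to 11000 to 11500 CPM (TMM-scaled counts, set to the same library total) in Scm and 10700 to 12000 in S-Rcm 12 h, and to 13000 to 13800 in Rcm and 10600 to 11300 in R-Scm 12 h, lower without overlap in the last pair. Lum, a proteoglycan of the list, had 6 counts over the 12 libraries. The 31 markers of other cell types summed to 18.6 to 20.4 CPM in Scm, 12 to 13.4 in Rcm, 25.6 to 29.9 in S-Rcm 12 h and 21.4 to 24.2 in R-Scm 12 h, and 13 to 17 of them were at 0 in all libraries of a group. Those without a count in any of the 12 libraries included Adgre1, Cd3e, Myod1, Myog, Sox10, Snap25, Adipoq, Plin1 and Pou5f1. Most of that sum was Tubb3, a beta-tubulin that marks neurons, and without it the sums were 3.97 to 4.06, 4.25 to 5.79, 4.72 to 5.87 and 5.11 to 10.9 CPM. Their part in the results was not tested. In bulk RNA, fewer cells of a type and less RNA per cell cannot be told apart.

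To find what both exchanges had in common, all 12 libraries were fitted with the starting medium and the exchange as terms. A gene was called when its log2 fold change passed 0.58 in size, its adjusted p was under 0.05 over all 15182 genes tested, and its sign was the same in both directions. Genes called higher numbered 131, or 0.863% of the genes tested, and genes called lower numbered 37, or 0.244%. Metalloproteinases, chemokines and interferon-stimulated genes were among those higher, and clock genes and genes of amino acid supply among those lower. Of the 131, 123 were protein coding, and of the 37, 28 were.

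In S-Rcm 12 h the 131 genes had a median of 0.95 on the log2 scale and in R-Scm 12 h of 1.02, while the 37 had -0.73 in both directions. These values come from the libraries that chose the genes and are a description. Each direction was also tested by its own contrast in 1 fit of the 12 libraries. The directions share no library, but they share the estimate of spread. S-Rcm 12 h had 215 genes called against Scm (1.42% of the genes tested, 157 higher and 58 lower). R-Scm 12 h had 536 called against Rcm (3.53%, 288 higher and 248 lower). When the 2 groups of a direction were fitted alone, 260 genes were called in S-Rcm 12 h and 237 in R-Scm 12 h. The larger number in R-Scm 12 h thus depended on the joint fit. Of the 131 genes, 51 were also called in S-Rcm 12 h and 86 in R-Scm 12 h, with 29 called in both, and 114 had an unadjusted p under 0.05 in both. Of the 37, the corresponding numbers were 14, 19, 6 and 33. These counts also come from the libraries that chose the genes and are a description.

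Over all genes tested, 53.7% changed with the same sign in both directions, and the log2 fold changes of the directions had a Pearson r of 0.0914 and a Spearman rho of 0.0831 across genes, which are not independent replicates. Of the 66 genes called in both directions separately, 29 were higher in both, 6 were lower in both and 31 had opposite signs. The difference between the directions was called for 459 genes (3.02%), among them 12 of the 131 and 4 of the 37.

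**Figure D1:**
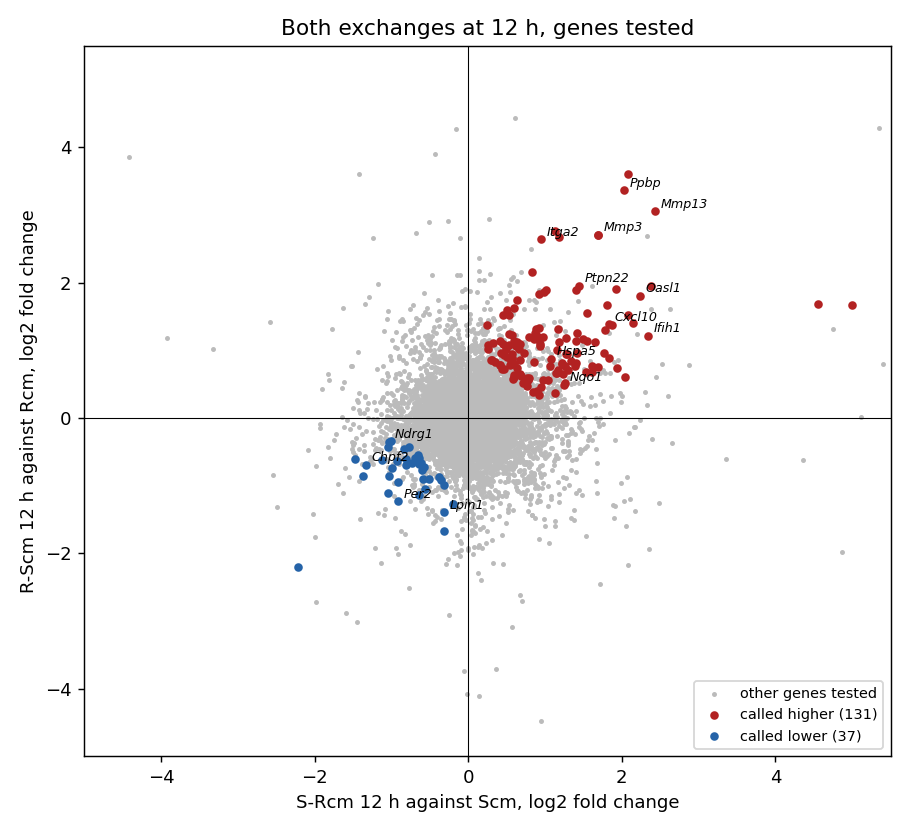
Each point is 1 of the genes tested, placed by its log2 fold change in S-Rcm 12 h against Scm (x axis) and in R-Scm 12 h against Rcm (y axis). The 131 genes called higher (red) lie upper right and the 37 called lower (blue) lower left, while the grey cloud of other genes shows little slope (Pearson r 0.0914 over all genes); 14 genes lie outside the axes.

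A gene was also described by whether its 3 exchanged libraries all lay above, or all below, its 3 unexchanged libraries in both directions. Of the genes tested, 381 (2.51%) lay above and 302 (1.99%) lay below. Of the genes called, 114 of the 131 and 30 of the 37 were without overlap. The same libraries chose these genes, so the 2 counts are largely set by the choice and are a description.

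Matrix metalloproteinases, secreted enzymes that cut collagen and other matrix proteins, were among the largest rises. Of 23 members tested in the list of metalloproteinases and their inhibitors, 4 were called higher (Mmp13, Mmp3, Mmp10 and Timp3) and 0 lower, with a median log2 fold change of 0.51 against 0.002 over all genes tested. Mmp13 (chr9:7272514-7283331, GRCm38), a collagenase, had 8.96, 8.9 and 8.55 CPM in Scm and 46.3, 52.9 and 43.4 CPM in S-Rcm 12 h. In Rcm it had 8.9, 9.38 and 6.8 CPM, and in R-Scm 12 h 56.2, 60.9 and 90.6 CPM. Every exchanged library lay far above every unexchanged one, and the starting levels of Mmp13 in the 2 media overlapped. The shared log2 fold change was 2.74 ± 0.16 (SE, 12 libraries, adjusted p = 1.8e-06).

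Mmp3 (chr9:7445822-7455975), a stromelysin with a broad range of matrix substrates, had 208, 227 and 226 CPM in Scm against 689, 742 and 712 in S-Rcm 12 h, and 164, 178 and 154 in Rcm against 870, 877 and 1490 in R-Scm 12 h. Its libraries did not overlap in either direction (2.20 ± 0.20, adjusted p = 0.00031). Mmp10 (chr9:7502352-7510240), a related stromelysin next to Mmp3, had 9.81 to 11.3 CPM in Scm against 22.3 to 24.8 in S-Rcm 12 h, and 6.19 to 7.52 in Rcm against 35.9 to 67 in R-Scm 12 h (1.94 ± 0.29, adjusted p = 0.0053). Both genes rose further in R-Scm 12 h than in S-Rcm 12 h, by 1.01 log2 for Mmp3 (adjusted p = 0.039 for the difference) and by 1.63 for Mmp10 (adjusted p = 0.0085). Timp3, an inhibitor of these enzymes, rose by 0.62 ± 0.13 (adjusted p = 0.027), but when single libraries were omitted in turn it was called in 4 of 12 fits, with values from 0.49 to 0.71.

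The bases before the starts of the 3 metalloproteinase genes are shown because each holds 1 copy of the AP-1 motif TGANTCA, the letters bound by FOS and JUN proteins. The 250 bases before the RefSeq start (GRCm38.p6) are chr9:7272264-7272513 for Mmp13, chr9:7445572-7445821 for Mmp3 and chr9:7502092-7502341 for Mmp10, all on the + strand, and capitals mark the motif.
Mmp13: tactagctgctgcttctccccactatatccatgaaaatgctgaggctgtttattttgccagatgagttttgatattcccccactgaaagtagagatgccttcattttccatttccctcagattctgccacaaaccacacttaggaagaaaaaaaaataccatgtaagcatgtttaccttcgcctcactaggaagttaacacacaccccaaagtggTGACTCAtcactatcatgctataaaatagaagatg
Mmp3: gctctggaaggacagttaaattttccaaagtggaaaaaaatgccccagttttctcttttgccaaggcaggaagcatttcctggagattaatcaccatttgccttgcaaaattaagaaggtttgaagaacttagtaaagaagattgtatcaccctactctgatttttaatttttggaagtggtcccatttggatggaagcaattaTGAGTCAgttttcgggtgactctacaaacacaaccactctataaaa
Mmp10: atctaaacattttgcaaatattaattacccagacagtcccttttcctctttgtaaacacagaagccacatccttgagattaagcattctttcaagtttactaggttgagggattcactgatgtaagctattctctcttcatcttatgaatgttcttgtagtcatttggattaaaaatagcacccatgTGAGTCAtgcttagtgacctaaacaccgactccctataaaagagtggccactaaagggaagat

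The motif began 35, 46 and 63 bases before the starts of Mmp13, Mmp3 and Mmp10. The window of Mmp13 also held 2 copies of the interferon motif described with Cxcl10. The AP-1 motif was searched on both strands, on which it reads alike, and was found in 4.14% of the 10132 such windows of genes tested. A match is a description of the letters only. Windows were held for 66.8% of the genes tested, and for too few of the called genes, fewer than 80%, to compare shares of motifs between the called genes and the rest, so that comparison is void.

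Other genes of adhesion and signalling were among the largest rises. Ptpn22, a tyrosine phosphatase known from immune cells, had 3.43 to 3.82 CPM in Scm against 9.02 to 11.4 in S-Rcm 12 h, and 1.84 to 2.59 in Rcm against 6.88 to 11.9 in R-Scm 12 h (1.69 ± 0.17, adjusted p = 0.00031). Plxna4, a semaphorin receptor, rose by 1.84 ± 0.27 (adjusted p = 0.0049) and more in R-Scm 12 h than in S-Rcm 12 h (difference 1.5, adjusted p = 0.041). Itga2, the collagen-binding integrin alpha chain, had 0.54 to 0.631 CPM in Scm and 0.266 to 0.501 in Rcm, against 0.88 to 1.58 and 1.24 to 3.75 after the exchange (1.80 ± 0.39, adjusted p = 0.031). Itga2 was called in 5 of the 12 fits without 1 library.

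**Figure D2:**
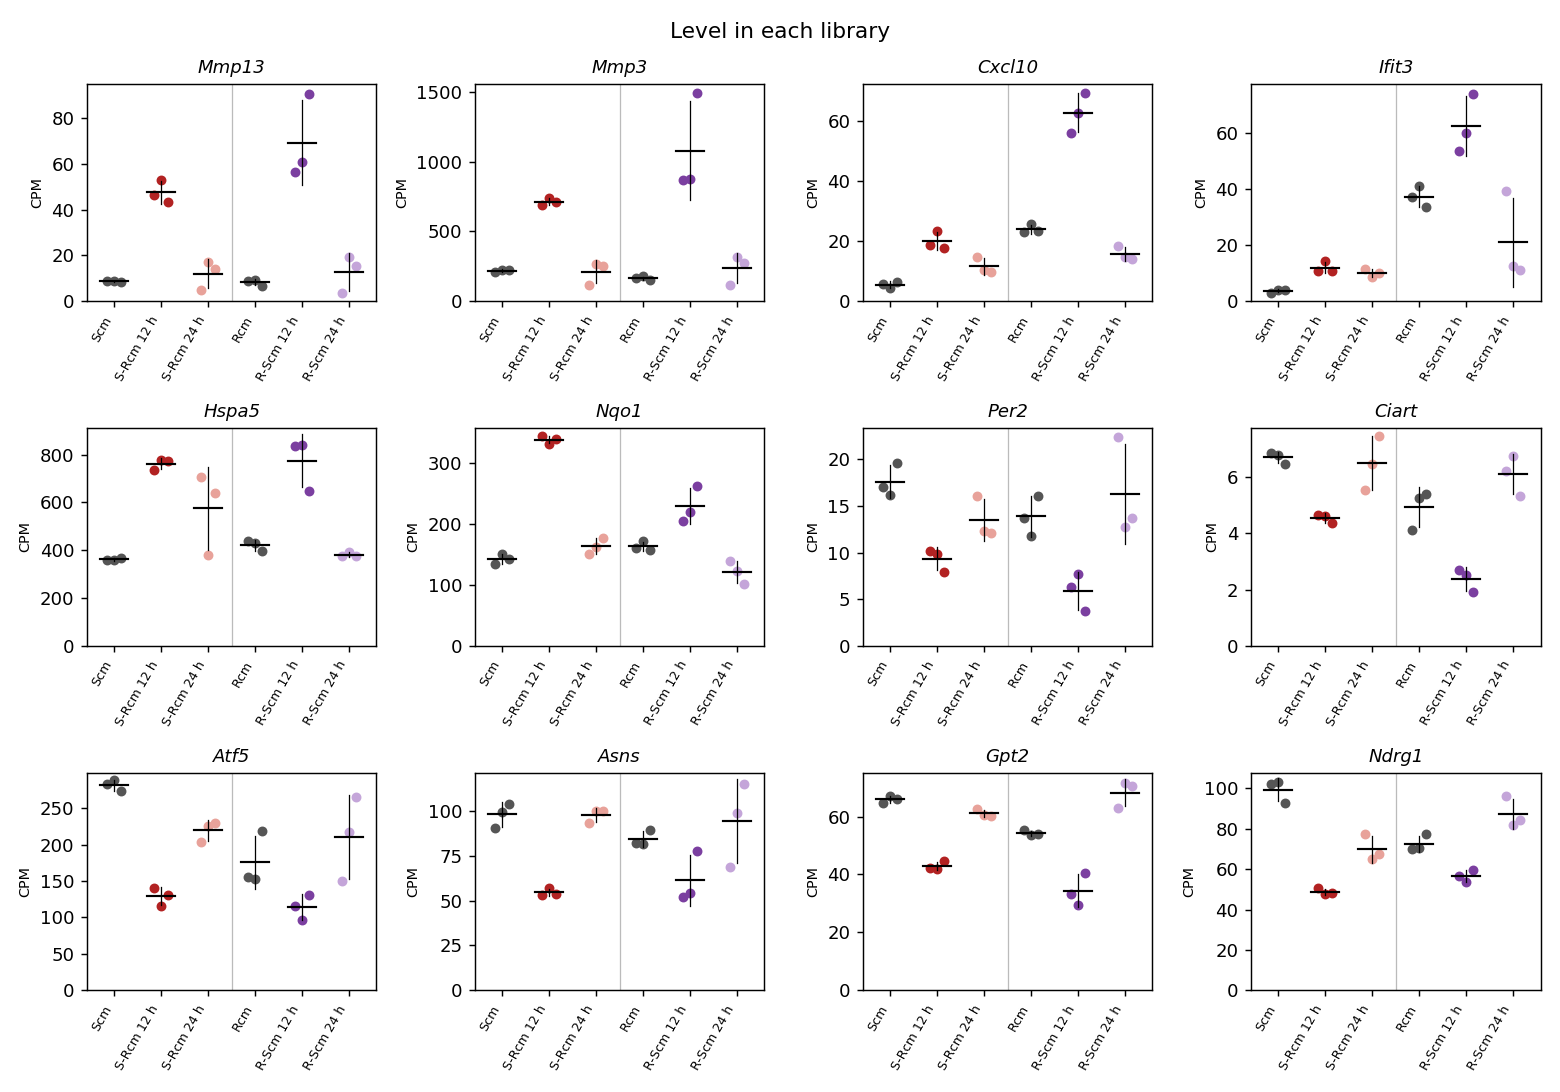
CPM in each library for 12 genes, with the groups that started in Scm left of the grey line and those that started in Rcm right of it. Points are libraries, the horizontal bar is the mean and the vertical line spans 1 SD either side (n = 3). Mmp13 stands at 43.4 to 90.6 CPM in the 12 h libraries and at 6.8 to 9.38 CPM in the unexchanged ones, and Asns shows the opposite order.

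Chemokines are secreted proteins that attract leukocytes. Of 24 members tested in the list of chemokines and inflammatory mediators, 9 were called higher and 0 lower, with a median of 0.57, and 12 had no overlap in both directions. Cxcl10, a chemokine that attracts T cells, had 5.77, 4.34 and 6.53 CPM in Scm and 18.6, 23.4 and 17.8 CPM in S-Rcm 12 h. In Rcm it had 22.9, 25.7 and 23.4 CPM, and in R-Scm 12 h 56.1, 62.7 and 69.1 CPM. The libraries of unexchanged Rcm and of S-Rcm 12 h overlapped, and all of R-Scm 12 h lay above both (shared 1.59 ± 0.12, adjusted p = 2.8e-05). Cxcl10 lies within Art3 on the opposite strand, and the use of strand in the counting is not stated.

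Cxcl1, a neutrophil attractant, had 3.36 to 4.42 CPM in Scm against 8.62 to 10.5 in S-Rcm 12 h, and 7.58 to 9.31 in Rcm against 13.7 to 30.1 in R-Scm 12 h (1.23 ± 0.18, adjusted p = 0.0049). Ppbp (chr5:90768518-90770063), whose product is cut into further neutrophil attractants and which is not in the list, had the largest shared value of the naming rule, with 1.24, 1.75 and 1.67 CPM in Scm, 5.66, 7.16 and 6.18 in S-Rcm 12 h, 2.44, 2.99 and 1.64 in Rcm and 11.7, 9.45 and 51.5 in R-Scm 12 h (2.77 ± 0.47, adjusted p = 0.012). Without replicate 3 of R-Scm 12 h, the library at 51.5 CPM, its value was 2.11. Its neighbour Cxcl5 (chr5:90759360-90761624) stood at 0 to 0.627 CPM before and 0.55 to 3.5 CPM after the exchange (2.30 ± 0.48, adjusted p = 0.027), and its call was lost without Scm replicate 1 or 2, S-Rcm 12 h replicate 2 or Rcm replicate 3.

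Ccl2 and Ccl7, neighbouring genes of monocyte attractants on chromosome 11, stood at 108 to 139 and 36.1 to 55 CPM before the exchange. Ccl2 had 178 to 184 CPM in S-Rcm 12 h and 207 to 357 CPM in R-Scm 12 h (0.84 ± 0.13, adjusted p = 0.0061), and Ccl7 had 55.3 to 63.1 and 97.7 to 163 CPM (0.90 ± 0.14, adjusted p = 0.0063). Ccl5, Cxcl16 and Tnfaip3 were the other members called, at 1.11, 0.59 and 0.88, and Il6 passed the test at the limit of detection with 0, 0 and 0 counts in Scm, 6, 3 and 3 in S-Rcm 12 h, 4, 2 and 6 in Rcm and 13, 14 and 14 in R-Scm 12 h. Il6 kept its call in 1 of the 12 fits without 1 library, Tnfaip3 in 3 and Cxcl16 in 9. Over those 12 fits the list held 6 to 8 members called higher.

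Interferon-stimulated genes formed the list with the most calls. Of its 27 members, 15 were called higher and 0 lower, and 25 were positive in both directions, with a median of 0.86. The median was 1.16 in S-Rcm 12 h and 0.57 in R-Scm 12 h. The difference between directions had an adjusted p under 0.05 for 4 members, with no fold threshold set. Ifit3, which encodes an RNA-binding antiviral protein, had 3.13, 4.13 and 3.89 CPM in Scm and 37.2, 40.9 and 33.5 CPM in Rcm. It had 10.9, 14.2 and 10.8 CPM in S-Rcm 12 h and 53.4, 59.9 and 74 CPM in R-Scm 12 h. All 6 exchanged libraries lay above the libraries of the medium they had left, but S-Rcm 12 h stayed below unexchanged Rcm (shared 1.15 ± 0.17, adjusted p = 0.0049). The rise was smaller in R-Scm 12 h, by 0.94 log2 (adjusted p = 0.041 for the difference).

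Gbp2, a GTPase of the guanylate-binding family, showed the same order, with 5.04 to 6.25 CPM in Scm, 9.54 to 11.4 in S-Rcm 12 h, 22.5 to 28.2 in Rcm and 43.7 to 61.4 in R-Scm 12 h (1.01 ± 0.11, adjusted p = 0.00059). Usp18, which removes ISG15 from proteins and limits interferon signalling, had 3.06 to 4.13, 7.01 to 10.7, 30 to 39.7 and 51.7 to 71.7 CPM in the same order of groups (0.98 ± 0.14, adjusted p = 0.0045). Irf7, a transcription factor of the interferon response, had 2.75 to 3.13, 5.72 to 6.3, 10 to 12.8 and 14.3 to 19.3 CPM (0.77 ± 0.13, adjusted p = 0.0067). Ifit1, Mx2, Mx1 and Gbp3 were called at 1.31, 1.26, 1.28 and 1.09.

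Oasl1, an antiviral protein that represses Irf7 translation, had the largest value of the list, at 0.28 to 0.593 CPM in Scm against 1.24 to 2.58 in S-Rcm 12 h, and 0.752 to 1.6 in Rcm against 3.61 to 4.52 in R-Scm 12 h (1.98 ± 0.26, adjusted p = 0.0027). Rsad2, which encodes the antiviral enzyme viperin, was at the limit of detection in Scm, with 3, 3 and 2 counts there, 7, 15 and 17 in S-Rcm 12 h, 17, 34 and 20 in Rcm and 59, 77 and 84 in R-Scm 12 h. Ifih1, a sensor of double-stranded RNA, rose by 1.59 ± 0.34 (adjusted p = 0.031), and it kept its call in 6 of the 12 fits without 1 library. Gbp6, a guanylate-binding protein outside the list, rose by 1.74 ± 0.32 (adjusted p = 0.013) and overlaps Gm43302 on the same strand.

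The list held 11 to 15 members called over the 12 fits without 1 library. When the starting medium was left out of the model, 1 member was called and the median was 0.67. Oas1a, Ifi44 and Cmpk2 kept their calls in 2, 5 and 2 of those fits. Several members have closely related genes next to them (Ifit3 and Ifit3b, Gbp2 and Gbp2b), and Igtp overlaps Irgm2 on the same strand. How shared reads were counted is not stated, so the split between such genes is uncertain.

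The promoters of Cxcl10 and Ifit3 are shown because they hold the letters GAAANNGAA, the core that interferon regulatory factors bind, which was found on either strand in 6.07% of all windows. The windows are chr5:92348890-92349139 on the - strand for Cxcl10 and chr19:34583279-34583528 on the + strand for Ifit3, and capitals mark the motif or its reverse complement.
Cxcl10: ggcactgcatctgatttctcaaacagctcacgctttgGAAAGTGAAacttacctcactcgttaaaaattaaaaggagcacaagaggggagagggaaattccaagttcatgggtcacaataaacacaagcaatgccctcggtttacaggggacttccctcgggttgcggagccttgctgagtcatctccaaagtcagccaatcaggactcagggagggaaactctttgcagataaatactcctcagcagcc
Ifit3: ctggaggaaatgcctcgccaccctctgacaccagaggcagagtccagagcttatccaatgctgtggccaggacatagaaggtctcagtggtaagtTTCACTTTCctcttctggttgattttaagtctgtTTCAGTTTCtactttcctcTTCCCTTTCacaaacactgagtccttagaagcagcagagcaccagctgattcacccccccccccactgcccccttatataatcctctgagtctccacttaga

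Cxcl10 had 1 match and Ifit3 had 3. Ifit1 also had 3, and 1 or 2 matches lay before the starts of Rsad2, Gbp2, Gbp3, Igtp, Oas1a and Ifih1. The window of Cxcl10 further held 1 copy each of TGANTCA and of the NF-kB letters GGGANTTCC, which were in 4.14% and 1.78% of windows.

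**Figure D3:**
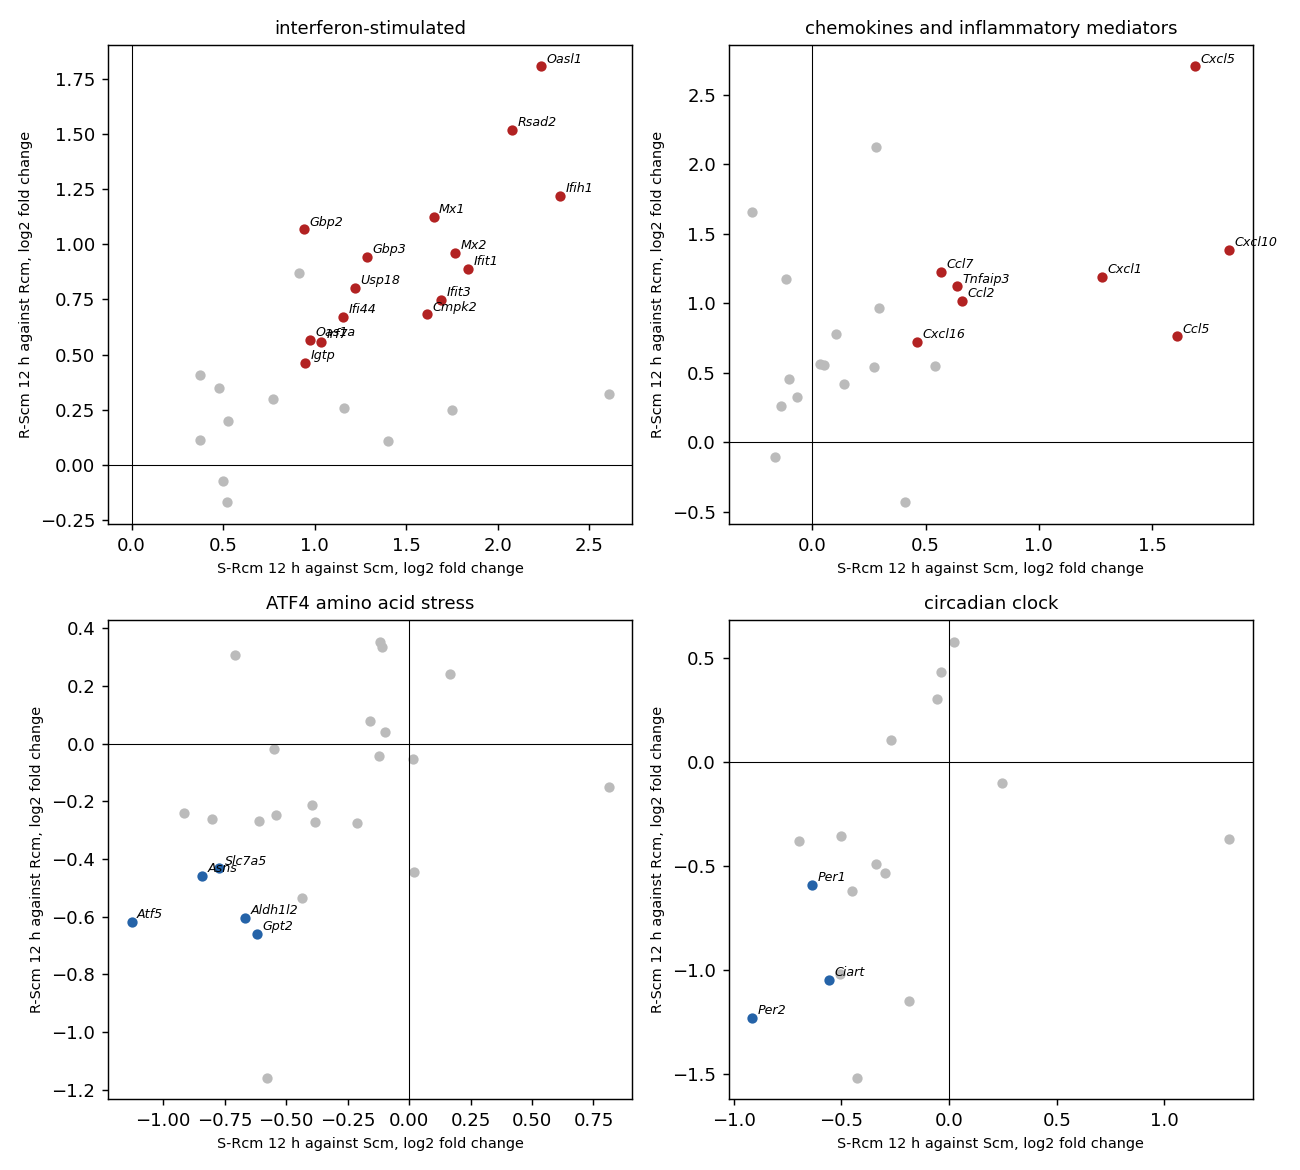
Members of 4 gene lists by log2 fold change in S-Rcm 12 h against Scm (x axis) and R-Scm 12 h against Rcm (y axis), with red for called higher, blue for called lower and grey for not called. Of the interferon-stimulated genes 25 of 27 lie above 0 on both axes, and of the clock genes 11 of 17 lie below 0 on both. Il6 is left out of the chemokine panel because it had 0 counts in Scm.

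Hspa5, the main chaperone of the endoplasmic reticulum, rose in nearly equal measure in both directions. It had 360, 357 and 367 CPM in Scm and 737, 777 and 773 in S-Rcm 12 h, and 439, 429 and 395 CPM in Rcm and 835, 840 and 646 in R-Scm 12 h. No libraries overlapped, and the shared value was 0.98 ± 0.07 (adjusted p = 2.8e-05), with a difference between directions of -0.20 that did not pass the test (adjusted p = 0.51). It was the only one of 19 heat shock and ER folding genes tested that was called, and the median of the list was 0.14. The window before its start (chr2:34771840-34772089, + strand) is shown because it holds the ER stress response element, CCAAT and CCACG with 9 bases between, found in 14 of the 10132 windows (0.138%); capitals mark both parts.
Hspa5: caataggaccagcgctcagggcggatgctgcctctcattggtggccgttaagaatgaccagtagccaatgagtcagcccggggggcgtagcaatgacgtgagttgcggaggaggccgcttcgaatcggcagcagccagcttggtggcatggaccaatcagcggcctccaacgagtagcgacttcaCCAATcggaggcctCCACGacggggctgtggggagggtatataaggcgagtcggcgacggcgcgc

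Further genes that rose encode secreted and matrix-related proteins. Ccn1 and Ccn2, matricellular proteins that YAP and serum are known to induce, rose by 0.72 ± 0.11 (adjusted p = 0.0049) and 0.94 ± 0.14 (adjusted p = 0.0052). Ccn1 had 392 to 413 CPM in Scm, 552 to 640 in S-Rcm 12 h, 532 to 613 in Rcm and 876 to 1370 in R-Scm 12 h. Thbs1, an adhesive glycoprotein, had 761 to 851, 1230 to 1540, 1510 to 1700 and 1810 to 2890 CPM in the same order (0.62 ± 0.11, adjusted p = 0.011), and it lost its call without S-Rcm 12 h replicate 2 or R-Scm 12 h replicate 3. Ccn2 and Thbs1 were the members called among 18 contractile and YAP targets, whose median was 0.14.

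Dcn, the small proteoglycan decorin, had 2.54 to 3.47 CPM in Scm against 5.12 to 6.31 in S-Rcm 12 h, and 3.12 to 4.07 in Rcm against 7.21 to 10.1 in R-Scm 12 h (1.06 ± 0.14, adjusted p = 0.0027). Igfbp4, which binds insulin-like growth factors, had 2.32 to 3.43, 6.18 to 6.49, 2.46 to 4.5 and 4.59 to 8.73 CPM in Scm, S-Rcm 12 h, Rcm and R-Scm 12 h (1.08 ± 0.19, adjusted p = 0.0094). Nqo1, a quinone reductase that NRF2 induces, had 135, 151 and 142 CPM in Scm against 345, 332 and 339 in S-Rcm 12 h, and 161, 172 and 157 in Rcm against 205, 220 and 262 in R-Scm 12 h. It rose in both directions (0.87 ± 0.12, adjusted p = 0.0045) and less in R-Scm 12 h (difference -0.76, adjusted p = 0.0067). Fas, a death receptor and p53 target, rose by 0.81 ± 0.15 (adjusted p = 0.013). Nqo1 was the only 1 of 18 NRF2 targets tested that was called, and their median was 0.26 in S-Rcm 12 h and -0.0075 in R-Scm 12 h. Fas was the only 1 of 17 p53 targets tested that was called, with medians of -0.12 and 0.69.

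Ctsl, a lysosomal protease, Tgfb2, a growth factor, and Egln3, an oxygen sensor, were called at 0.60, 0.66 and 0.73, and Ctsl overlaps Gm49230 on the same strand. In the fits without 1 library they kept their calls in 7, 2 and 11 of 12. Tubb3, the marker named above, was called at 0.75 ± 0.14 (adjusted p = 0.015) and was the member called among 4 markers of other cell types tested.

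Per2, a clock gene, had the largest fall of the genes named. Of 17 clock genes tested, 3 were called lower (Per2, Ciart and Per1) and 0 higher, 11 were negative in both directions, 9 had no overlap in both directions, and the median was -0.43. Per2, which represses its own transcription, had 17, 16.2 and 19.6 CPM in Scm and 10.2, 9.86 and 7.95 CPM in S-Rcm 12 h. In Rcm it had 13.7, 11.8 and 16.1 CPM, and in R-Scm 12 h 6.28, 7.74 and 3.69 CPM. All exchanged libraries lay below all unexchanged ones (-1.07 ± 0.16, adjusted p = 0.0049). Ciart, another clock repressor, had 6.46 to 6.85 CPM in Scm against 4.36 to 4.67 in S-Rcm 12 h, and 4.14 to 5.42 in Rcm against 1.91 to 2.7 in R-Scm 12 h (-0.79 ± 0.14, adjusted p = 0.0098). Per1 fell by 0.61 on the log2 scale (SE 0.11, adjusted p = 0.011), with its call lost without Rcm replicate 1 or R-Scm 12 h replicate 3.

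Cry2, Cry1, Bhlhe40, Bhlhe41 and Nr1d2, which also act in the clock's negative limb, had adjusted p of 0.0062, 0.019, 0.010, 0.038 and 0.032, with values of -0.53, -0.54, -0.43, -0.42 and -0.42 that did not reach the fold threshold. Arntl, the activator that pairs with CLOCK, had 0.02 in S-Rcm 12 h and 0.58 in R-Scm 12 h and did not pass. The number of clock genes called was 2 to 4 over the 12 fits without 1 library. With harvests only at 12 h and 24 h after the exchange, a shift of clock phase and a change of clock amplitude cannot be told apart. The promoter of Ciart (chr3:95882229-95882478, - strand) is shown because it holds 3 copies of the E-box CACGTG, the letters bound by CLOCK and its partner, in capitals.
Ciart: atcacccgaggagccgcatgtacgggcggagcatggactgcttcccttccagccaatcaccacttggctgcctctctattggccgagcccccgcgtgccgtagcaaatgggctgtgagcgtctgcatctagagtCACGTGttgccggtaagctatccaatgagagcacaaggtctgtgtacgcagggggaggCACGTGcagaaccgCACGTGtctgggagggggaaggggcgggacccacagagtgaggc

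The E-box was in 8.52% of all windows and in 5 of the 15 windows held for the 17 clock genes, Ciart and Per1 among them. It was also in the window of Mnt, a MYC antagonist, which had 56.5 to 63.5 CPM in Scm against 33.6 to 35.9 in S-Rcm 12 h, and 37.1 to 50 in Rcm against 19.3 to 30.9 in R-Scm 12 h (-0.75 ± 0.11, adjusted p = 0.0049).

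Some genes of amino acid supply fell. Of 25 ATF4-related genes tested, 5 were called lower (Atf5, Asns, Slc7a5, Gpt2 and Aldh1l2) and 0 higher, 16 were negative in both directions, and the median was -0.30. Atf5, a transcription factor close to ATF4, had 283, 288 and 273 CPM in Scm and 140, 116 and 131 CPM in S-Rcm 12 h. In Rcm it had 156, 153 and 218 CPM, and in R-Scm 12 h 116, 96.4 and 131 CPM. Neither pair of groups overlapped (-0.87 ± 0.12, adjusted p = 0.0039). Il4i1 and Nup62 overlap Atf5 on the other strand, and whether their reads were kept apart is not stated.

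Asns, which makes asparagine, had 90.6 to 104 CPM in Scm against 53.3 to 56.7 in S-Rcm 12 h, and 81.2 to 89.4 in Rcm against 52.2 to 77.7 in R-Scm 12 h (-0.65 ± 0.11, adjusted p = 0.0065). Gpt2, the mitochondrial alanine aminotransferase, had 64.6 to 67, 41.9 to 44.5, 53.6 to 55.3 and 29.3 to 40.6 CPM in Scm, S-Rcm 12 h, Rcm and R-Scm 12 h (-0.64 ± 0.07, adjusted p = 0.0013). Slc7a5, the large neutral amino acid transporter, had 190 to 198, 108 to 120, 155 to 181 and 111 to 151 CPM (-0.60 ± 0.09, adjusted p = 0.0051). Slc7a5 lost its call without Scm replicate 1, S-Rcm 12 h replicate 2 or 3, or R-Scm 12 h replicate 1, down to -0.57.

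Aldh1l2, a mitochondrial folate enzyme, was called at -0.63 and kept its call in 1 of the 12 fits without 1 library. The number of ATF4-related genes called was 3 without Scm replicate 1, S-Rcm 12 h replicate 2 or 3, or R-Scm 12 h replicate 1. It was 7 in the fit that omitted replicate 3 of R-Scm 12 h. Atf4 itself (-0.24, adjusted p = 0.41) and Trib3 (-0.58, adjusted p = 0.18) did not pass.

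Of the other genes called lower, Kdm6b, a histone H3 demethylase, had 41.5 to 49.4, 24.4 to 27.8, 24.9 to 32.2 and 13.7 to 22.2 CPM in Scm, S-Rcm 12 h, Rcm and R-Scm 12 h (-0.71 ± 0.11, adjusted p = 0.0062). Ndrg1, a stress gene known for its induction by hypoxia, fell more in S-Rcm 12 h (-1.03) than in R-Scm 12 h (-0.36), with a difference of 0.67 (adjusted p = 0.0062). Of 26 hypoxia and glycolysis genes tested, 1 was called lower (Ndrg1) and 1 higher (Egln3), and the median was -0.08. Glt8d2, a glycosyltransferase family gene, and Ahnak2, a large scaffold protein, were called at -0.89 and -0.60, and Ahnak2 fell under the fold threshold without Scm replicate 1 or S-Rcm 12 h replicate 3. Lpin1, a phosphatidate phosphatase of lipid synthesis, was called at -0.85 ± 0.17 (adjusted p = 0.024) with -0.32 in S-Rcm 12 h and -1.39 in R-Scm 12 h (difference -1.08, adjusted p = 0.0030), and its call was lost without any 1 library of R-Scm 12 h.

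Chpf2, a chondroitin synthesis gene, Rph3al, an effector of vesicle transport, Hcfc1r1 and the pseudogene Rpl19-ps7 were called at -1.01, -0.70, -0.69 and -0.73. They kept their calls in 5, 8, 3 and 4 of the 12 fits without 1 library. Reads on Rpl19-ps7 may come from Rpl19, and those on Chpf2 from Smarcd3, which overlaps it on the other strand. Slc30a4, a zinc transporter, was called at -0.78 and kept its call in 2 of the 12.

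Other lists had few or no shared calls. Of 22 cholesterol synthesis genes, 2 were called lower in the shared effect (Lss at -0.995 and Sqle at -0.73). Yet the difference between the directions had an adjusted p under 0.05 for all 22, with no fold threshold set. The median of this list was 0.09 in S-Rcm 12 h and -1.40 in R-Scm 12 h. Lss had values of -0.32 and -1.68 and Sqle -0.19 and -1.27 in the 2 directions, and their shared calls remained in 2 and 1 of the 12 fits without 1 library. Growth lists gave 0 calls in edgeR's test: DNA replication (28 genes tested, median 0.01), mitosis (28, 0.02), ribosome biogenesis (26, 0.03) and cytosolic ribosomal proteins (22, -0.07). Over all genes tested 0.863% were called higher and 0.244% lower, so 0 calls in lists this short do not set them apart. DESeq2 also called 0 of each, and at an unadjusted p under 0.05 there were 8, 0, 2 and 0 members, beside 16.8% of all genes tested. For DNA replication 7 of these were higher and 1 lower. Of 28 immediate early and serum response genes, 1 was called (Ccn1), and the median was 0.08.

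**Figure D4:**
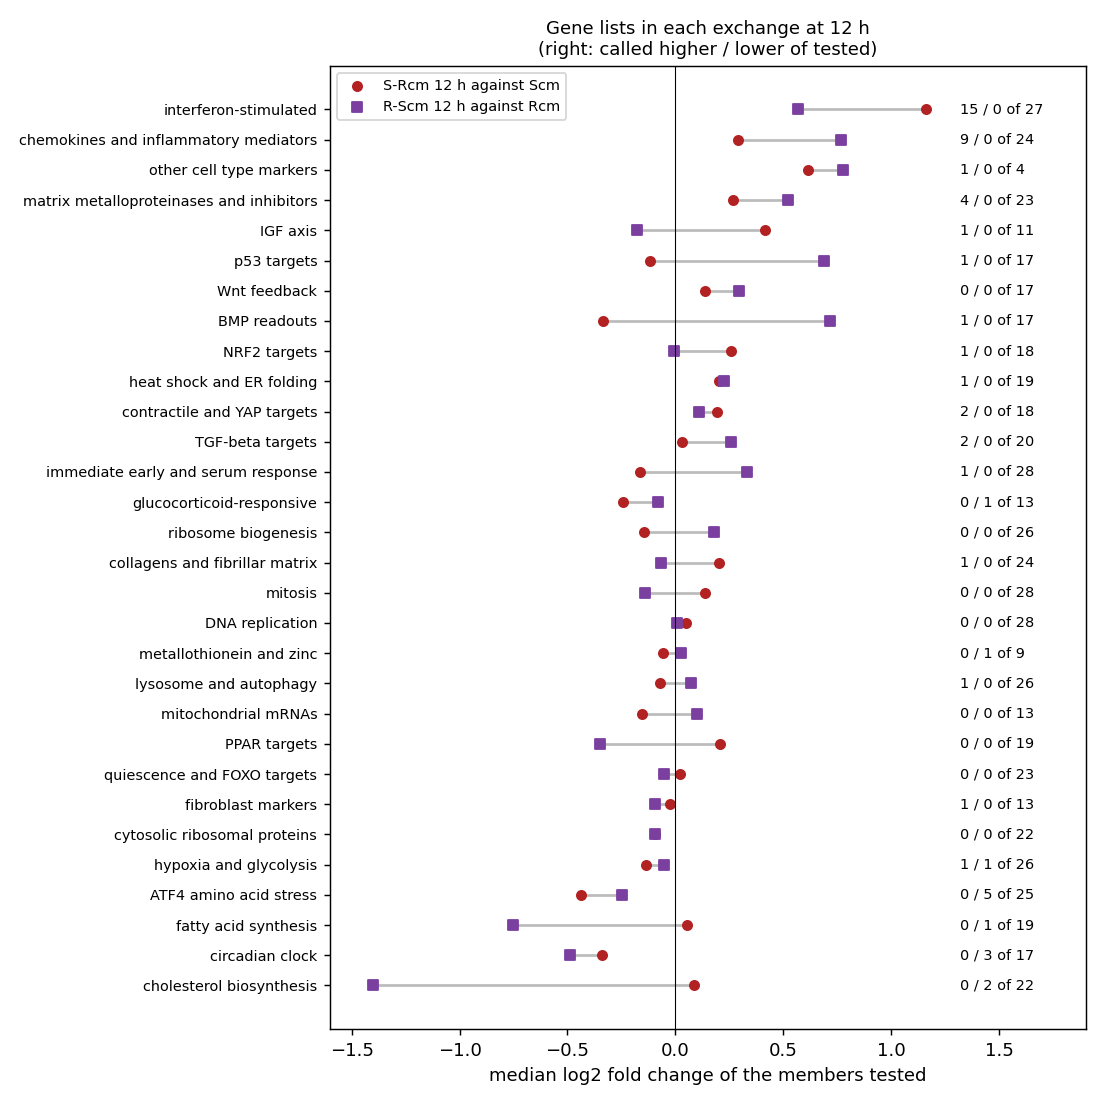
Median log2 fold change of the tested members of 30 gene lists in S-Rcm 12 h against Scm (red circles) and R-Scm 12 h against Rcm (purple squares), ordered by the shared median, with the numbers of members called higher and lower at the right. Interferon-stimulated genes stand at 1.16 and 0.57, ATF4-related genes at -0.44 and -0.25, and cholesterol synthesis genes at 0.09 and -1.40.

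Within 100 kb of another called gene lay 31 of the 168 (18.5%), in 14 groups, and within that distance of a called gene lay 3.39% of the tested genes that were not called. These included Mmp3 and Mmp10 on chromosome 9, Cxcl5 with Ppbp and Cxcl10 with Cxcl11 on chromosome 5, Ccl2 with Ccl7 on chromosome 11, Mx1 with Mx2 on chromosome 16, Rsad2 with Cmpk2 on chromosome 12, Ifit1 with Ifit3 and Ifit3b on chromosome 19 and Gbp2 with Gbp2b and Gbp3 on chromosome 3. All of the pairs named here had the same sign.

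Among the 12 libraries, replicate 3 of Rcm lay furthest from its own replicates (root mean square 0.496 log2 CPM), followed by replicate 3 of R-Scm 12 h (0.486), which also lay furthest from the medium it had left. Replicate 3 of R-Scm 12 h was the highest of its group for 101 of the 131 genes called higher, against 38.4% of all genes tested. It was the lowest for 21 of the 37 called lower, and the share of all genes where it was lowest was not computed. Without this R-Scm 12 h library, 99 genes were called higher and 27 lower, and 106 of the 168 were called again. The median of the 131 genes over the medium left was 0.81, 0.93 and 1.2 in replicates 1, 2 and 3 of R-Scm 12 h, and 0.91, 1.02 and 0.86 in those of S-Rcm 12 h.

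To see whether the change lasted, the values at 24 h were set beside those at 12 h; both times share the unexchanged libraries. Before these values, replicate 1 of both 24 h groups stood apart. That of R-Scm 24 h differed from the mean of its other 2 replicates by a root mean square of 0.56 log2 CPM over 15381 genes and from unexchanged Rcm by 0.43, whereas replicates 2 and 3 were 0.53 and 0.52 from Rcm and 0.50 from their own group. For Ifit3 this library had 39.2 CPM against 12.6 and 11.1 in its replicates, and for Lpin1 57.3 against 23.4 and 24.8. Unexchanged Rcm had 33.5 to 40.9 CPM of Ifit3 and 49.4 to 53.6 CPM of Lpin1. Replicate 1 of S-Rcm 24 h differed from its other replicates by 0.474, against 0.398 and 0.413 for those. Both were low for the metalloproteinases, with 116 CPM of Mmp3 against 264 and 251 in S-Rcm 24 h and 117 against 318 and 275 in R-Scm 24 h. Over all genes their deviations from the group means had a correlation of 0.146.

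At 24 h the mean effect of both exchanges was called for 4 genes (0.026% of 15381 tested), all higher, for 17 without R-Scm 24 h replicate 1, for 3 without S-Rcm 24 h replicate 1 and for 23 without both. The 4 included Edn1, a vasoconstrictor peptide, named after its values were seen. Edn1 was the only one of the 168 genes called in the same direction at 24 h; its 24 h value was 0.98 (adjusted p = 0.0075) beside 1.21 at 12 h. Without R-Scm 24 h replicate 1, 5 of the 168 were called in the same direction with 1 sign in both exchanges, among them Ptpn22 (1.2), Ccn1 (0.76) and Edn1 (1.04). Without replicate 1 of both groups there were 9, Mmp13 (0.95, adjusted p = 0.0094) among them. The 131 genes had a median of 0.43 in S-Rcm 24 h and 0.14 in R-Scm 24 h (0.12 without its replicate 1), and the 37 had -0.15 in both (-0.09 in R-Scm 24 h without it). Without that replicate, R-Scm 24 h had 12 of the 131 called higher than Rcm and 18 called lower. In the same fit S-Rcm 24 h had 12 called higher than Scm and 0 lower. When S-Rcm 24 h replicate 1 was omitted instead, R-Scm 24 h had 2 called higher and 0 lower. These counts were not set beside the share over all genes.

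Mmp13 had 5.06, 17 and 14.2 CPM in S-Rcm 24 h and 3.48, 19.2 and 15.6 CPM in R-Scm 24 h. Hspa5 had 708, 379 and 640 CPM in S-Rcm 24 h and 377, 393 and 375 in R-Scm 24 h, Per2 had 12.1 to 16.1 and 12.7 to 22.4, and Asns had 93.2 to 100 and 68.8 to 115. At 24 h the libraries overlapped the unexchanged ones in both directions for Asns and in R-Scm 24 h for Per2. For Mmp13 the overlap came from replicate 1 of each group, and the other 4 libraries lay above every unexchanged one. Per2 reached 16.1 CPM in S-Rcm 24 h, beside a lowest value of 16.2 in Scm. Hspa5 reached 393 CPM in R-Scm 24 h, beside a lowest value of 395 in Rcm. The 24 h values were scaled with all 18 libraries and the unexchanged ones with 12, so gaps this narrow do not show a separation. In S-Rcm 24 h the lowest Hspa5 value was 379 CPM, beside a highest of 367 in Scm. Ifit3 had a log2 fold change of 1.47 in S-Rcm 24 h and -0.82 in R-Scm 24 h, or -1.64 without R-Scm 24 h replicate 1, a difference between directions that was not tested. Ccn1 had 0.91 in S-Rcm 24 h and 0.41 in R-Scm 24 h, with a mean of 0.66 that did not pass (adjusted p = 0.070) until that library was left out (adjusted p = 0.0022). Thbs1 had 1.02 and 0.096, with a mean of 0.56 that did not pass (adjusted p = 0.19).

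The mean of both 24 h groups was also compared with the mean of both 12 h groups, a comparison chosen after seeing the data. It called 138 genes (0.897%), 50 higher and 88 lower at 24 h, 268 without R-Scm 24 h replicate 1, 91 without S-Rcm 24 h replicate 1 and 275 without both. Among the 131 genes, 48 were called lower at 24 h than at 12 h (63, 34 and 65 without these libraries in the same order). Among the 37, 13 were called higher (13, 12 and 13). By sign alone, all of the 131 were lower at 24 h than at 12 h and all of the 37 were higher. The 12 h libraries that chose the genes also enter this comparison, so that part of the decline is set by the choice. Cxcl10 (-1.38, adjusted p = 1.5e-05), Mmp13 (-2.20, adjusted p = 0.0029) and Nqo1 (-0.98, adjusted p = 5.8e-06) fell from 12 h to 24 h, and Gpt2 (0.76, adjusted p = 1.9e-05) and Ciart (0.94, adjusted p = 0.00049) rose. Without R-Scm 24 h replicate 1, S-Rcm 24 h replicate 1 or both, these 5 genes kept their calls, with values of -1.55 to -1.45 for Cxcl10, -2.02 to -1.79 for Mmp13, -1.04 to -0.96 for Nqo1, 0.75 to 0.78 for Gpt2 and 0.93 to 0.99 for Ciart.

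**Figure D5:**
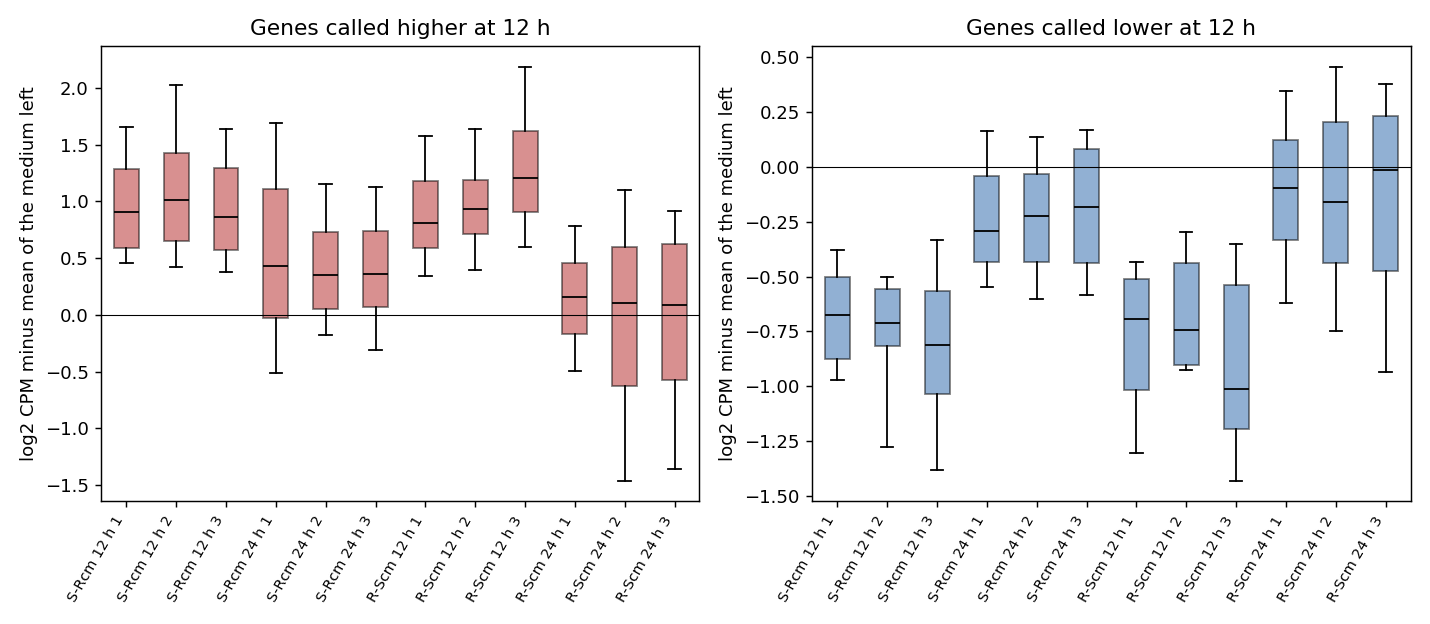
Log2 CPM of the 131 genes called higher (left) and the 37 called lower (right) minus the mean of the medium left, in each exchanged library. Boxes span the quartiles with the median as a line and whiskers reach from the 10th to the 90th percentile over genes. Medians of the left panel are 0.81 to 1.2 at 12 h and 0.09 to 0.43 at 24 h, and the 12 h libraries are the ones that chose the genes.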

How the data were processed

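RNA from MEFs was extracted by the authors with the RNeasy mini kit, sequenced as paired-end mRNA libraries and aligned to GRCm38 with HISAT2. The authors deposited whole-number counts of reads per gene for 55487 genes in 18 libraries, without normalization. The counting tool, its use of strand and its treatment of reads with several alignments are not given in the sources used here. Reads carry no molecular identifiers, so limits from counts cover counting error only. Groups were taken from the sample titles, and 0 columns were left out.

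Genes were kept by filterByExpr of edgeR with the groups as design (15182 genes in the 12 libraries, 15381 in all 18), libraries were scaled by TMM, and robust quasi-likelihood models were fitted in edgeR 4.0.16 (R 4.3.3, limma 3.58.1). The shared effect came from a model of starting medium plus exchange, and each direction and their difference from a model with 1 coefficient per group. The 24 h values came from the same group model on 18 libraries. P-values were adjusted by Benjamini-Hochberg over all genes tested. SE is the log2 fold change divided by the root of F. CPM of single genes are counts divided by the TMM-scaled library total. That scaling used the 12 libraries for their own values and all 18 for the values of the 24 h libraries. Marker sums used the library total without TMM. The script was tested on simulated data.

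The members, lists, motifs and tests were chosen with earlier results of these data known. The genes named were the 12 largest rises and 12 largest falls among called genes without overlap in both directions, which averaged 1 CPM or more and had a full symbol, the 4 most abundant of each direction, and in each of 30 lists the members called. Values were due for up to 4 members of a list, and further members were given values after these were seen. Some items that met these rules are not reported here. Promoter sequences came from RefSeq (GRCm38.p6) by symbol. For genes with several starts the most upstream was used. Gene coordinates came from GENCODE M21. Alternatives were other thresholds, RLE and upper-quartile scaling, other filters, a replicate block, DESeq2 1.42.0, other models and each library left out. Leaving out replicate 1 of both 24 h groups together, its values for single genes and the pairing over 18 libraries were chosen after seeing the data. Figures were drawn with matplotlib 3.10.9 in Python 3.11.15.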

Additional observations from a re-analysis of the deposited data

Results flagged for a closer look

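Genes that changed with the same sign in both directions could still differ in size between them, and 9 of the genes named did so in the test of the difference itself (adjusted p under 0.05). As the log2 fold change in R-Scm 12 h minus that in S-Rcm 12 h, the values were 1.01 for Mmp3, 1.63 for Mmp10, 1.5 for Plxna4 and 0.67 for Ndrg1. They were -1.08 for Lpin1, -0.76 for Nqo1, -1.36 for Lss, -1.07 for Sqle and -0.94 for Ifit3. For Mmp3, Mmp10 and Plxna4 the rise was the larger in R-Scm 12 h, and for Nqo1 and Ifit3 the larger in S-Rcm 12 h. For Lpin1, Lss and Sqle the fall was the larger in R-Scm 12 h, and for Ndrg1 the larger in S-Rcm 12 h. Groups of 3 libraries were not tested for single outlying values.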

How the results depend on the processing

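Under 24 alternatives, 1315 of 1597 pairs of a named gene and a setting kept the direction and the call, 282 kept the direction and lost the call, and 0 reversed; 40 of the 67 named genes kept their call in each of the 12 fits without 1 library. Genes called higher and lower were 50 and 14 at an adjusted p under 0.01, 202 and 144 without a fold threshold, 206 and 60 with DESeq2 (159 of the 168 again), 46 and 20 without a term for the starting medium, and 61 lower with group means on 12 libraries. Without 1 library they were 90 to 113 and 21 to 35. Genes called in S-Rcm 12 h were 80 at an adjusted p under 0.01, 341 without a fold threshold, 354 with DESeq2, 132 in the fit of all 18 libraries and 81 to 136 without 1 library. With the 2 groups alone they were 260. In R-Scm 12 h they were 269 at an adjusted p under 0.01, 899 without a fold threshold, 237 with the 2 groups alone and 361 to 519 without 1 library. The difference between directions had 188 genes at an adjusted p under 0.01 and 255 to 469 without 1 library. The mean 24 h effect had 1 gene at an adjusted p under 0.01, 27 with DESeq2 and 1 to 17 without 1 library. The comparison of 24 h with 12 h had 61 at an adjusted p under 0.01, 354 without a fold threshold, 224 with DESeq2 and 87 to 268 without 1 library. The cause of these shifts was not tested.

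Among the 12 libraries, 3 of 18 same-numbered pairs had deviations with a correlation over 0.1 (range -0.206 to 0.135), so the numbers were not taken to pair the samples. Over all 18 it was 11 of 45 by the numbers in the titles (range -0.196 to 0.346) and 7 of 36 by those in the descriptions, which differ from the titles in R-Scm 12 h and both 24 h groups. With a replicate block, 88 genes were called higher and 26 lower. Other scalings moved list medians by at most 0.016. DESeq2 gave no adjusted p for 901 genes. With 3 libraries a group and genes near 1 CPM, small changes were not detectable at this depth.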
